A study of Homo sapiens with 4 samples.

Results

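Trophectoderm-like (TE-like) and epiblast-like (Epi-like) cells of human blastoids were compared across the whole transcriptome. The 2 classes were set from the cells' own unique molecular identifier counts (UMIs, one per captured RNA molecule): a cell was TE-like where the UMIs of KRT8, KRT18, GATA3 and CLDN4 together exceeded those of POU5F1, DPPA5, DPPA4, L1TD1 and TDGF1, and Epi-like otherwise. This gave 457 TE-like and 10445 Epi-like cells, 10902 of the 13017 cells that passed the same filters in all 6 hashtagged cultures and of 24564 barcodes deposited. The remaining cells came from aggregates collected at 40 h and were not compared here.

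Blastoids are stem-cell-derived structures with a fluid-filled cavity that model the blastocyst. Naive embryonic stem (nES) cells of the line labelled H9, held in PXGL medium, were aggregated with 4 mM dimethyl α-ketoglutarate (dm-αKG, a cell-permeable form of the tricarboxylic acid cycle metabolite) for 40 h or with 0 mM, and blastoids with a single cavity were picked by mouth pipette at 120 h. Cultures were marked with hashtag antibodies, pooled and captured in 2 droplet runs, so there were 4 blastoid arms: run 1 at 4 mM, run 1 at 0 mM, run 2 at 4 mM and run 2 at 0 mM. Below, 4 values given for a class always follow that order of arms. According to the study's text, TE cells are fragile and are lost out of proportion at dissociation, so the share of a class in a library is not its share in a blastoid. The check of the gene expression libraries against the labelled line gave 2 of 2 libraries that did not match it, in all 8 class sums, and the cells are therefore called the line labelled H9. All arms derived from 1 line, and nothing in the labels says that the cultures within a run were started separately, so the p-values below measure the spread between these 4 arms, which may be technical.

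The trophectoderm is the outer epithelium of the blastocyst. It polarizes, seals its junctions, pumps ions and water into the cavity and later forms the trophoblast of the placenta, under factors that include GATA2, GATA3, TFAP2C, CDX2 and the TEAD partners of YAP1. The epiblast is the inner pluripotent tissue that forms the embryo, and it is held by POU5F1, SOX2 and NANOG and, in its naive state, by genes such as KLF17 and DPPA5.

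A cell's arm was read from a short DNA barcode on the hashtag antibody, and a cell was kept where 1 barcode held at least 80% of its hashtag UMIs. The barcodes of the 4 arms are shown because every class sum rests on them. All bases are in capitals, since the whole barcode is the tag.
Run 1, 4 mM, hashtag A0252: TGATGGCCTATTGGG
Run 1, 0 mM, hashtag A0251: GTCAACTCTTTAGCG
Run 2, 4 mM, hashtag A0256: GGTTGCCAGATGTCA
Run 2, 0 mM, hashtag A0255: AAGTATCGTTTCGCA

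TE-like cells were a small class in every arm. There were 56, 18, 175 and 208 TE-like cells and 1006, 360, 5101 and 3978 Epi-like cells. The TE-like share was 5.27% in run 1 at 4 mM (95% Clopper-Pearson interval 4.01 to 6.79) and 4.76% in run 1 at 0 mM (2.85 to 7.42), against 3.32% in run 2 at 4 mM (2.85 to 3.84) and 4.97% in run 2 at 0 mM (4.33 to 5.67). The share was therefore higher at 4 mM in run 1 and lower at 4 mM in run 2. These intervals cover counting error only. By the same rule 2 of 1098 cells of the 40 h aggregates were TE-like at 4 mM and 1 of 1017 at 0 mM. The matrices of the runs shared 28 barcodes, of which 5 were kept blastoid cells in both runs.

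The 9 genes of the rule separated the classes by construction, and their values are given as a description with no test. The median TE-like cell had 346, 358.5, 177 and 177.5 UMIs of the 4 trophectoderm genes and 17, 19, 12 and 15.5 UMIs of the 5 pluripotency genes, whereas the median Epi-like cell had 7, 3, 3 and 2 UMIs of the trophectoderm genes and 141, 138.5, 76 and 76 UMIs of the pluripotency genes. KRT18, a simple-epithelium keratin, was at 7780, 9535, 7878 and 7786 CPM (UMI counts scaled to 1000000 per library, with TMM factors) in the TE-like sums and at 243, 171, 210 and 178 CPM in the Epi-like sums. GATA3, a trophectoderm transcription factor, was at 246, 106, 162 and 124 CPM in the TE-like sums and at 0.38, 0.719, 0.754 and 1.11 CPM in the Epi-like sums. The separation was unequal on the other side: POU5F1 was still at 124, 269, 227 and 393 CPM in the TE-like sums, against 875, 813, 822 and 826 CPM in the Epi-like sums, and DPPA5 at 169, 161, 391 and 687 CPM against 1852, 2317, 2176 and 2334 CPM. In both genes the TE-like sum of run 2 at 0 mM was the highest of the 4.

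**Figure D1:**
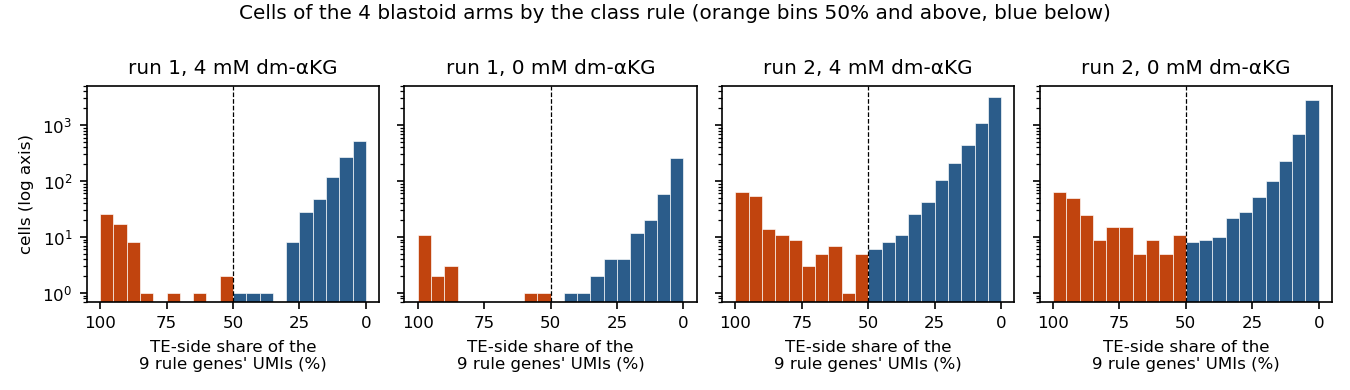
Cells of each blastoid arm by the share of the 9 rule genes' UMIs that came from the 4 trophectoderm genes (x axis, percent, high values at the left; y axis, number of cells on a log scale). Bins of 50% and above are orange and lower bins blue. In every arm few cells lay between the 2 ends, and run 2 at 0 mM held 45 of the 72 TE-like cells within 3-fold of the cut.

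Few cells lay close to the cut. Just inside it stood TE-like cells with 11 trophectoderm against 10 pluripotency UMIs, 46 against 45, 37 against 36, 14 against 13 and 64 against 63. Just outside stood Epi-like cells with 68 against 68, 15 against 17, 25 against 27, 30 against 32 and 10 against 13. In all, 72 of the 457 TE-like cells (15.8%) and 189 of the 10445 Epi-like cells (1.81%) had less than 3-fold between the 2 gene groups. The near-cut TE-like cells of run 2 were deep: they had medians of 24509 UMIs at 4 mM and 25131 UMIs at 0 mM, against 16345.5 and 15780 UMIs in the TE-like cells further from the cut. A droplet with cells of both classes of one culture cannot be told apart from a cell between the classes, since hashtags mark only mixtures of cultures. The part of such droplets in the results was not tested, but with the near-cut cells left out 2893 genes were called higher and 3309 lower, close to the counts below.

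Across the transcriptome the classes differed at close to as many genes as they did not. Of 12277 genes tested outside the rule, 2818 were higher in TE-like cells (23.0% of genes tested) and 3029 were lower (24.7%), together 47.6%, at a Benjamini-Hochberg adjusted p under 0.05 in edgeR's quasi-likelihood test on UMI sums per arm and class with arm in the model. The higher genes reached further: 200 were higher by more than 3 log2 units and 83 lower by more than that, although more genes were lower by more than 1 log2 unit (1696) than higher (884). Among called genes, 2476 of the higher and 2866 of the lower had the same sign in all 4 arms, and in 2098 and 2633 of them the 4 TE-like values did not overlap the 4 Epi-like values. Because the classes were cut from RNA of the same cells, these p-values describe how well a difference repeated over arms and are no test that the classes exist. The TE-like sums held 1869052, 486929, 3101676 and 3812990 UMIs and the Epi-like sums 31501922, 10509926, 85275888 and 69383525 UMIs, so the 18 TE-like cells of run 1 at 0 mM gave the least precise values. Without run 2 at 4 mM, 1842 genes were called higher and 2056 lower.

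The direction of small differences depended on the scaling. TMM placed the median gene at -0.03, while scaling by total UMIs alone placed it at -0.25 and called 1707 genes higher and 4490 lower, so that 27.5% in place of 48.2% of called genes were higher. Where a list's median changed sign under the other scaling, this is said beside it. The list counts below stand beside 23.0% higher and 24.7% lower over all genes tested. Abundant genes were called higher more often. Among genes with at least 20 CPM, the share called higher ran from 25.0% (chromosome 16) to 44.3% (chromosome 20). A list with shares near these is described and is no result about its members.

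Among genes with at least 50 CPM in the higher class and 1 sign in all arms, those that separated the classes most were trophoblast genes close to absent from Epi-like cells. VGLL1 and TP63, under 50 CPM, had larger log2 ratios, at 8.99 and 9.44. PTN, a secreted heparin-binding growth factor, had 1001, 297, 922 and 237 CPM in TE-like cells, against 0.556, 0.359, 2.05 and 1.81 CPM in Epi-like cells. The lowest TE-like value was far above the highest Epi-like value, and the fitted log2 ratio was 8.62 ± 0.41 (SE; adjusted p = 5.7e-09, edgeR quasi-likelihood). CCKBR, a receptor for gastrin and cholecystokinin, had 289, 42.4, 195 and 73.8 CPM in TE-like cells and 0.176, 0.0898, 0.601 and 0.456 CPM in Epi-like cells (log2 ratio 8.44 ± 0.29). NR2F2, a nuclear receptor of the trophoblast, had 348, 46.7, 189 and 69.5 CPM against 0.673, 0.18, 0.754 and 0.577 CPM (7.94 ± 0.24). CCKBR and NR2F2 are on the study's list of polar trophectoderm genes. In all 3 genes both 4 mM arms stood above both 0 mM arms within the TE-like class. Of the 3, PTN alone is among the named genes past the class by dose test below. LRP2, an endocytic receptor of apical membranes, followed with 170, 65.7, 136 and 95.7 CPM in TE-like cells, against 0.205, 0.0898, 0.71 and 0.577 CPM in Epi-like cells (7.88 ± 0.24). HSD17B1, the enzyme that makes estradiol from estrone, had 706, 352, 504 and 243 CPM against 2.02, 2.43, 2.71 and 2.45 CPM (7.44 ± 0.23). The other genes among the 15 largest differences were HAND1, GATA2, TINAGL1, WLS, S100A6, FOLR1, GATA6, HAPLN1, MYOF and CAPN2, with log2 ratios between 5.78 and 7.49.

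The share of cells with a UMI also differed between the classes. With every cell thinned to 5000 UMIs, PTN had a UMI in 55.1% of TE-like cells, against 0.823% of Epi-like cells. Over the arms this share of TE-like cells was 80.4%, 33.3%, 69.7% and 38.0%. CCKBR was seen in 40.0% of TE-like and 0.201% of Epi-like cells, and KRT19 in 84.0% and 9.10%. For CCKBR the TE-like shares over the arms were 71.4%, 11.1%, 53.1% and 23.1%. Without thinning the shares of PTN were 72.9% and 2.34%, those of CCKBR 54.9% and 0.718% and those of KRT19 93.9% and 27.4%. The TE-like shares lay far above the Epi-like shares of the same genes. Free RNA, misplaced cells and true expression can each add to the Epi-like shares, and their parts were not tested.

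The smallest p belonged to genes with less extreme but steadier differences. S100A16, a calcium-binding protein, had 311, 507, 325 and 364 CPM in TE-like cells and 8.4, 11.3, 9.75 and 11.5 CPM in Epi-like cells, a log2 ratio of 5.15 ± 0.10 with an adjusted p of 7.2e-12 (edgeR quasi-likelihood), the smallest of all genes tested. DAB2, a clathrin adaptor that works with LRP2, had 173, 115, 155 and 127 CPM against 8.66, 6.11, 8.4 and 6.57 CPM (4.26 ± 0.09).

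Under the same limits, the 15 genes with the largest differences in the other direction included NANOG, SOX2, FGF4 and NODAL. In TE-like cells of run 2 all 15 kept measurable levels. VCAN, a matrix proteoglycan, had 0.572, 0, 8.55 and 13.1 CPM in TE-like cells, against 72.5, 64.1, 74.1 and 69.8 CPM in Epi-like cells (log2 ratio -3.19 ± 0.30, adjusted p = 2.9e-06 by edgeR). FGF4, a growth factor of the epiblast, had 10.9, 8.48, 24.2 and 34.8 CPM against 202, 196, 193 and 181 CPM (-3.07 ± 0.21). NANOG had 11.4, 8.48, 27.4 and 29.6 CPM in TE-like cells and 192, 134, 152 and 126 CPM in Epi-like cells (-2.73 ± 0.22). For all 3 the TE-like values of run 2 lay above those of run 1, while the Epi-like values differed little by run. KHDC3L, a maternal-effect gene of naive cells, showed the same order with 49.8, 27.6, 108 and 144 CPM in TE-like cells, against 488, 565, 496 and 566 CPM. The others of the 15 were NODAL, GDF3, ZNF483, CDCA7L, CCND2, HOXB-AS1, LNCPRESS1, UTF1, TMX4, ALPL and SOX2, with log2 ratios between -2.82 and -2.37.

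The lowest TE-like levels of abundant epiblast genes differed by arm. Among genes with at least 200 CPM in the Epi-like sum, the lowest TE-like level was 5.38% of the Epi-like level in run 1 at 4 mM (FGF4), 4.88% in run 1 at 0 mM (KHDC3L), 16.7% in run 2 at 4 mM (UTF1) and 25.5% in run 2 at 0 mM (KHDC3L). Genes under 200 CPM could lie lower, as VCAN did in every arm, so these levels are no floor. Free RNA, mixed droplets and true expression would each add to a TE-like level and cannot be told apart. A lower gene's ratio is therefore a ratio of these sums. Levels of PTN in the Epi-like sums were 0.0556%, 0.121%, 0.223% and 0.765% of the TE-like levels.

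**Figure D2:**
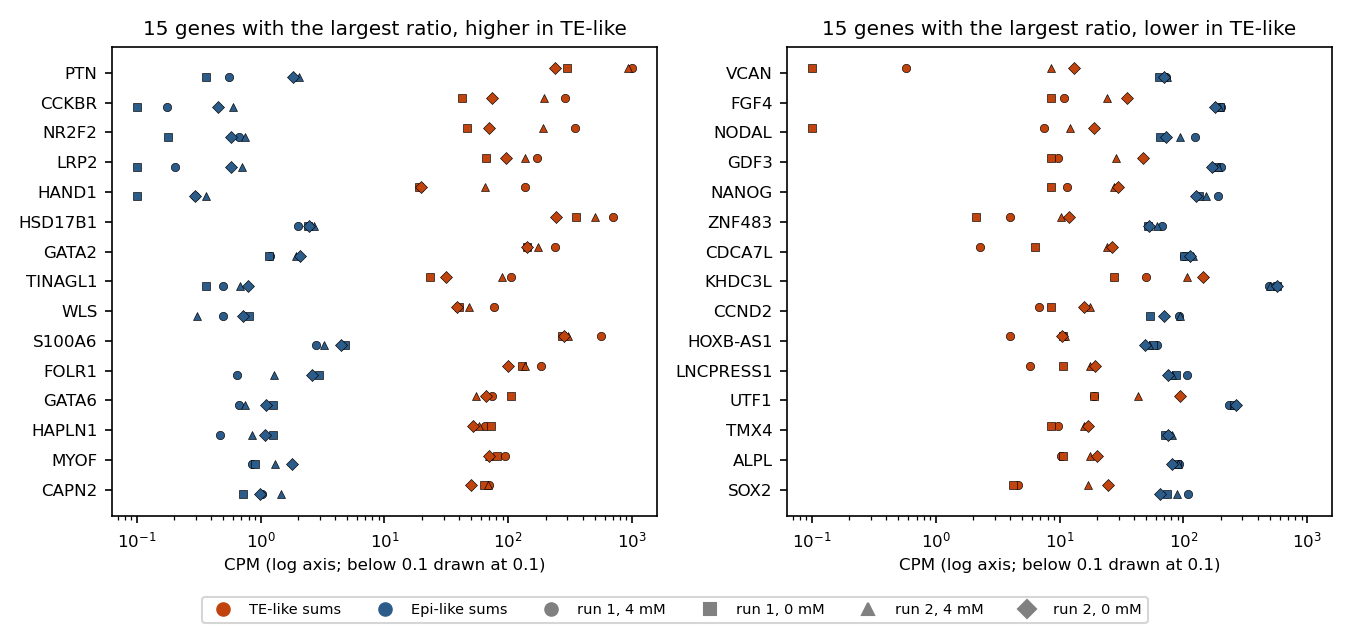
CPM (x axis, log scale) in each arm's TE-like sum (orange) and Epi-like sum (blue) for the 15 genes with the largest ratio in each direction among genes with at least 50 CPM. Marker shapes give the arm and values under 0.1 CPM are drawn at 0.1. The gap is widest for PTN, at 1001, 297, 922 and 237 CPM against at most 2.05 CPM, and for the lower genes the TE-like values of run 2 sit nearer to the Epi-like values than those of run 1.

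Trophectoderm markers outside the rule were nearly all higher. The marker lists were chosen with earlier results of these data known. Their counts describe the classes and are no independent check of the names. Of 20 trophectoderm markers, 19 were higher in TE-like cells and 1 was lower, with a median log2 ratio of 4.25, against -0.03 over all genes tested. The exception was PPP1R14A, an inhibitor of myosin phosphatase, at a log2 ratio of -1.09. KRT19 had 1275, 471, 1249 and 747 CPM in TE-like cells and 17.6, 20.8, 18.0 and 22.7 CPM in Epi-like cells. Of 20 epiblast markers, none was higher and 16 were lower, with a median of -2.25. Those that did not pass were LIN28A at -0.11, ZFP42 at -0.19, TFCP2L1 at 0.03 and IFITM1 at 0.16.

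Transcription factors of the trophectoderm were higher in 28 of 31 tested, lower in 1, with a median of 3.13. GATA2, which acts with GATA3 in trophoblast, had 240, 142, 175 and 142 CPM in TE-like cells and 1.2, 1.17, 1.91 and 2.08 CPM in Epi-like cells, a log2 ratio of 6.65 ± 0.20. HAND1, a helix-loop-helix factor of the trophoblast, had 136, 19.1, 64.8 and 19.7 CPM against 0.293, 0, 0.361 and 0.295 CPM. GATA6, known as a primitive endoderm factor and also as a gene of early human trophectoderm, had 74.4, 106, 55.2 and 65.5 CPM against 0.673, 1.26, 0.743 and 1.11 CPM (6.22 ± 0.16). Over the TE-like sums GATA2 and HAND1 were higher in both 4 mM arms than in both 0 mM arms, HAND1 by more. GATA6 was highest in run 1 at 0 mM. None of these factors is among the named genes past the class by dose test below. CDX2 had 37.8, 40.3, 21.7 and 28.2 CPM in TE-like cells, against 0.293, 0.449, 0.667 and 0.845 CPM in Epi-like cells. The factors shared with naive cells differed less. TFAP2C, which both lineages use, was higher in TE-like cells in every arm, with a log2 ratio of 0.94. TEAD4, the TEAD factor of the early trophectoderm, had 50.9, 76.3, 64.5 and 70.4 CPM in TE-like cells and 67.3, 69.8, 72.2 and 75.0 CPM in Epi-like cells. Its ratio of -0.16 did not pass the test. TEAD1 did differ, at 132, 121, 124 and 103 CPM against 6.26, 8.89, 6.34 and 7.55 CPM (4.08 ± 0.13). The 1 factor that fell was ID1, a BMP-induced inhibitor of helix-loop-helix factors, at -1.38.

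The promoters of 2 of these factors and of 1 epiblast gene are shown because the genes stood at the ends of the comparison, and because motif words of trophoblast and pluripotency factors were searched in them. Each is the 250 bases upstream of the start in RefSeq on GRCh38.p14, read 5′ to 3′ on the gene's strand, with matches in capitals: GCCNNNGGC, the TFAP2 word, in HAND1 and GATA2 and AGATAA, the GATA word, in GDF3.
HAND1, chr5:154478228-154478477, minus strand: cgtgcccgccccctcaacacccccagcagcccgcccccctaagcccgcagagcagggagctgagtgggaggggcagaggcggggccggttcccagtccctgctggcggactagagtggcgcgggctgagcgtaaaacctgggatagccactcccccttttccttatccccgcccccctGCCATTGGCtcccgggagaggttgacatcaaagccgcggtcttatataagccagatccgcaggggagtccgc
GATA2, chr3:128493202-128493451, minus strand: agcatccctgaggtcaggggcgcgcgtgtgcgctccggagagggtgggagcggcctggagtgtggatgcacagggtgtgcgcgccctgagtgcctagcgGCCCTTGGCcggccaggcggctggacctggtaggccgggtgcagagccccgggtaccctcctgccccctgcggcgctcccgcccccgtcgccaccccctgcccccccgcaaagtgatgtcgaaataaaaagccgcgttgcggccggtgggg
GDF3, chr12:7695776-7696025, minus strand: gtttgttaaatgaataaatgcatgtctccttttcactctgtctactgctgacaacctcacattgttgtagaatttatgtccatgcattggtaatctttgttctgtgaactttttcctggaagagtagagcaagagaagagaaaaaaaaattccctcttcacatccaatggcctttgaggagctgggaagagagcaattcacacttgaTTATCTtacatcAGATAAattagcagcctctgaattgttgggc

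The match began 72 bases before the start of HAND1 and 151 bases before that of GATA2, and the matches in GDF3, an epiblast ligand that was lower in TE-like cells, began 43 and 31 bases before its start. On either strand, GCCNNNGGC was in 5 of the 13 promoters found for the 15 genes highest in TE-like cells (38.5%) and in 2 of 13 of the lowest (15.4%), but in 27.8% of those of all genes called higher, 29.3% of those called lower and 28.1% of the 9388 promoters of genes tested. AGATAA was in 5.26% of the promoters of genes called higher and 3.95% of those called lower, against 4.19% of those of genes tested. It was in 0 of the 13 promoters of the highest genes and 1 of 13 of the lowest. GGAATG, the TEAD word, was in 9.01% and 9.0% of those called higher and lower, against 9.14%. The octamer word ATGCAAAT was in 0.914% of the promoters of genes called higher and 1.87% of those called lower, against 1.17% of those of genes tested. These shares were not tested against each other, and a match is a description of letters, not a bound site.

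The study's own lists of polar and mural trophectoderm markers, taken from human embryos, were both higher. The polar side faces the epiblast and the mural side lines the cavity. Of 18 polar markers tested (of 25), 17 were higher and none lower, with a median log2 ratio of 3.42. Of 24 mural markers tested (of 25), 18 were higher and 1 was lower, with a median of 1.59. PGF, a placental growth factor of the polar list, had 62.9, 4.24, 62.3 and 46.4 CPM in TE-like cells, against 2.16, 1.89, 3.07 and 2.95 CPM in Epi-like cells. Its value in run 1 at 0 mM was close to the Epi-like level and the other 3 were not. On the mural list, S100A6 had 565, 271, 302 and 284 CPM against 2.81, 4.76, 3.27 and 4.47 CPM (6.53 ± 0.24). The mural member that fell was PROM1, an apical membrane protein, at -0.44.

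Markers of later trophoblast were mixed. Of 11 cytotrophoblast markers tested, 7 were higher and 3 were lower. XAGE2, an X-linked trophoblast gene, had 56.1, 46.7, 59.8 and 20.8 CPM in TE-like cells and 0.497, 0.898, 0.71 and 1.3 CPM in Epi-like cells, whereas PEG10, ITGA6 and FZD5 were lower. Of 19 syncytiotrophoblast and hormone genes, 15 were too low to test in either class and the 4 tested were higher: TBX3, OVOL1, ERVW-1 and GDF15. Of 11 extravillous trophoblast markers 4 were tested, with PLAC8 and ITGA5 higher and MMP2 and MMP15 lower. Since a gene low in both classes left the test, these counts describe only the members that were measurable.

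Most markers of other lineages were too low in both classes to test. Some endoderm genes were higher in TE-like cells, and only part of that signal came from single cells. Of 15 primitive endoderm markers 6 were tested and 3 were higher: SOX17, COL4A2 and LAMB1, a laminin chain that trophectoderm also makes. SOX17 was low but higher in every arm, at 6.86, 8.48, 4.63 and 2.28 CPM in TE-like cells, against 0.0878, 0.27, 0.208 and 0.134 CPM. GATA6, given above, was not on this list. The list's median of 0.56 changed sign without near-cut cells. The summed list was at 187, 274, 176 and 132 CPM in TE-like cells and 48.6, 42.3, 44.5 and 43.9 CPM in Epi-like cells, and LAMB1 alone gave 121, 121, 114 and 103 CPM of the TE-like sums. In run 1 at 0 mM the TE-like sum also held 10.6 CPM of FOXA2, 17.0 CPM of RSPO3 and 29.7 CPM of LINC00261. All 44 UMIs there of 7 endoderm genes (GATA4, FOXA2, SOX17, PDGFRA, APOA1, RSPO3 and LINC00261, chosen after the values were seen) came from 1 of the 18 cells, and over the arms 2, 1, 2 and 0 TE-like cells had UMIs of at least 3 of the 7 genes. Amnion markers were tested for 2 of 9 genes and 1, GADD45G, was higher. Mesoderm markers were tested for 3 of 13 genes, of which BST2 and MIXL1 were lower.

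Pluripotency genes fell in breadth, and the naive, the core and the primed sets all did so. Of 14 core regulators 11 were lower and 1 was higher, with a median of -1.54. Of 28 naive genes 21 were lower and 6 were higher (median -1.52), and of 19 genes of primed or post-implantation epiblast 13 were lower and 3 were higher (median -1.39). By summed level the core and naive lists were lower in every arm, but the primed list was higher. It had 1619, 1366, 1299 and 1320 CPM in TE-like cells and 1594, 1238, 1066 and 971 CPM in Epi-like cells. SOX2 had 4.58, 4.24, 17.1 and 24.8 CPM in TE-like cells and 108, 73.1, 88.5 and 64.9 CPM in Epi-like cells (-2.37 ± 0.30). KLF17, a naive factor, had 1.14, 0, 6.05 and 4.56 CPM against 35.6, 22.6, 31.8 and 24.6 CPM. FGF2, listed with the primed genes, had 0.572, 4.24, 4.27 and 6.55 CPM against 37.8, 39.8, 29.9 and 35.3 CPM. For none of the 3 did the classes overlap. The naive genes that rose were TBX3, KLF3, IL6ST, NLRP2, DPPA3 and DNMT3L. DPPA3, a maternal factor that guards DNA methylation, had a log2 ratio of 0.61 and DNMT3L, a cofactor of the de novo methyltransferases, 0.45. The primed genes that rose were DUSP6, an ERK phosphatase, at 3.74, CD24 at 1.88 and TCF7L1 at 1.45.

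Ligands and feedback genes of Nodal and FGF signalling were lower, while the BMP and WNT genes split. Of 17 Nodal and TGF-β genes 10 were lower and 2 higher. The ligands led: NODAL had 7.44, 0, 12.1 and 19.1 CPM in TE-like cells, against 123, 65.3, 94.7 and 72.8 CPM in Epi-like cells, and GDF3 9.73, 8.48, 28.5 and 47.3 CPM against 199, 184, 191 and 171 CPM. The 2 genes that rose were the convertases that cleave Nodal precursors, FURIN at 1.17 and PCSK6 at 3.01. Of 19 FGF and ERK feedback genes 12 were lower and 4 higher. ETV4, a target of FGF signalling, had 6.86, 10.6, 10.3 and 22.2 CPM against 56.1, 54.4, 56.9 and 53.8 CPM, whereas DUSP6 had 57.8, 67.9, 15.7 and 46.4 CPM against 3.54, 2.7, 2.45 and 3.14 CPM. Both are known ERK-induced genes and they moved in opposite directions. Of 15 BMP and ID genes 6 were higher and 6 lower. MSX2, a homeobox target of BMP, had 137, 48.8, 68.4 and 41.6 CPM against 3.19, 1.89, 2.63 and 2.55 CPM, ID2 had a ratio of 2.84, SMAD5, a BMP signal transducer, 2.03, and ID4 -2.17. Of 15 WNT genes 6 were higher and 6 lower, with NKD2, an inhibitor of the pathway, at 2.69 and WNT3, a ligand, at -2.84.

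The Hippo pathway, which reads cell polarity in the early embryo, was higher in 14 of 21 genes tested and lower in 2, with a median of 1.42. YAP1, its transcriptional effector, had 75.5, 29.7, 60.9 and 46.2 CPM in TE-like cells and 13, 14.2, 12.2 and 12.7 CPM in Epi-like cells (2.11 ± 0.16). AMOT, an angiomotin that binds YAP1 at junctions, had a ratio of 5.10, and the kinase LATS2 a ratio of 2.00. VGLL1, a TEAD cofactor of trophoblast, had 63.5, 25.4, 42.7 and 19.7 CPM against 0.0293, 0, 0.0328 and 0.134 CPM. Positive and negative members of the pathway were thus higher together. NF2, which activates the kinases, fell, at -1.01.

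Epithelial structure genes were higher as far as keratins and actin linkers went and differed less for junctions. Of 10 keratin and desmosome genes tested 7 were higher and 1 was lower. PKP2 and JUP, desmosomal plaque proteins, had ratios of 2.71 and 1.97, while DSP did not pass at 0.03 and PLEC, a cytoskeletal linker, fell, at -0.83. Of 21 junction genes 11 were higher and 4 lower, with a median of only 0.29. Of 24 polarity genes 12 were higher and 4 lower. The ERM proteins, which tie actin to the apical membrane, were exchanged: EZR and RDX rose at 1.44 and 2.01, and MSN fell to 6.86, 2.12, 11.4 and 10.8 CPM in TE-like cells, against 46.3, 40.0, 40.6 and 41.9 CPM in Epi-like cells (-2.16 ± 0.19). Of 35 annexin, S100 and actin-linked genes 25 were higher and 5 lower (median 1.08), with S100A14 at 4.64 and S100A13 at 2.75.

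Transport genes that serve a cavity-forming epithelium were higher only in part. Of 18 ion and water transport genes 9 were higher and 5 lower, with a median of 0.18 that became -0.03 under scaling by total UMIs. AQP3, a water and glycerol channel, had 52.1, 97.6, 54.5 and 100.3 CPM in TE-like cells and 9.01, 9.79, 10.6 and 13.1 CPM in Epi-like cells (2.73 ± 0.14). SLC12A3, a sodium-chloride cotransporter, had a ratio of 3.58. FXYD5 and FXYD6, regulators of the sodium pump, fell, at -1.14 and -2.33. Of 19 V-ATPase genes, which encode the proton pump, 11 were higher and 3 lower. The gain was largest in tissue-specific subunits: ATP6V0A4 had a ratio of 5.35, ATP6V0D2 of 3.48 and ATP6V1C2 of 2.74.

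Uptake genes followed. Of 18 apical endocytosis genes 13 were higher and 3 lower, with a median of 0.74, among them CTSL, a lysosomal protease, at 320, 252, 288 and 287 CPM in TE-like cells and 58.9, 75.1, 62.6 and 73.3 CPM in Epi-like cells. Of 19 carriers of amino acids and glucose 13 were higher and 3 lower (median 1.07). SLC2A3, a high-affinity glucose carrier, had 698, 698, 741 and 645 CPM against 66.5, 64.7, 83.2 and 82.0 CPM (3.23 ± 0.09). SLC7A2, a carrier of cationic amino acids, had 447, 344, 384 and 358 CPM against 16.0, 14.6, 18.8 and 20.5 CPM, whereas SLC7A3 and SLC7A1, which carry the same substrates, fell, at -1.77 and -1.54. Both groups of values in each of these genes were well apart.

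**Figure D3:**
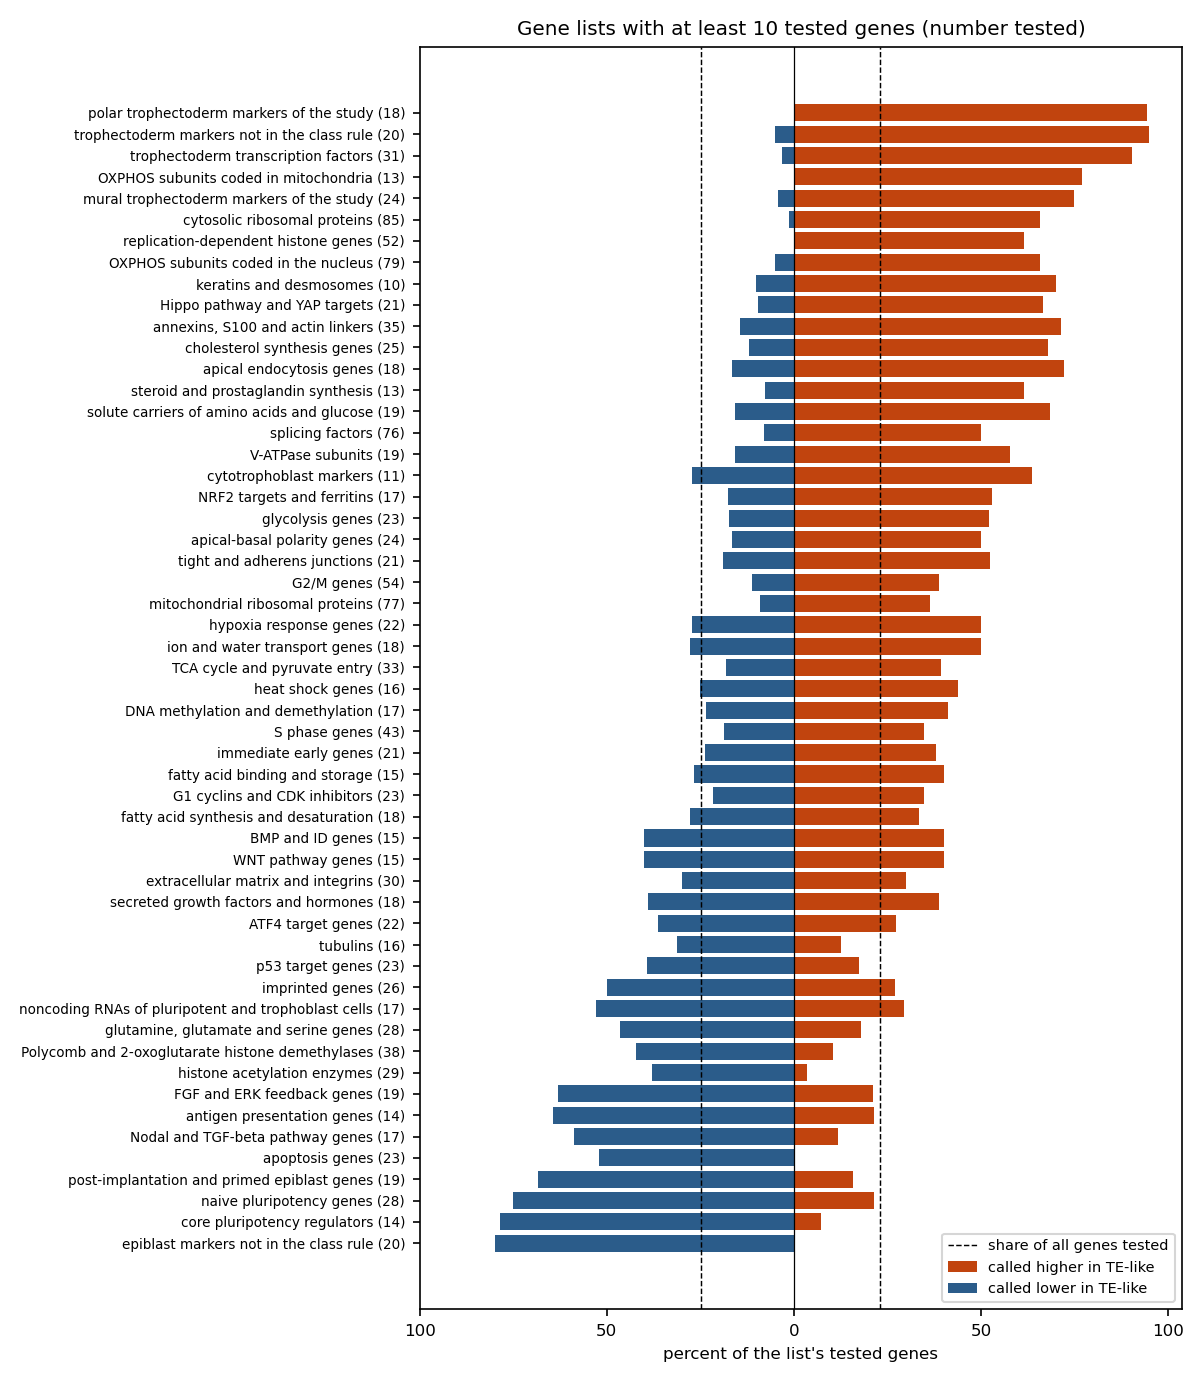
Percent of each list's tested genes called higher (orange, right) or lower (blue, left) in TE-like cells, for the gene lists with at least 10 tested genes, with the number tested in brackets. Dashed lines give the shares over all genes tested, 23.0% and 24.7%; trophectoderm markers reach furthest to the right, with 19 of 20 higher, and epiblast markers lie to the left, with 16 of 20 lower.

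Steroid and prostaglandin enzymes were among the most class-specific metabolic genes. Of 13 tested 8 were higher and 1 lower. Beside HSD17B1, the steroid sulfatase STS had 68.1, 33.9, 44.2 and 37.6 CPM in TE-like cells, against 1.38, 1.17, 1.86 and 1.35 CPM in Epi-like cells, the prostaglandin E synthase PTGES 30.9, 53, 37 and 49.0 CPM against 1.08, 1.89, 1.74 and 2.68 CPM, and CYP11A1, which makes pregnenolone from cholesterol, a ratio of 6.24. No value overlapped between the classes. AKR1B1 fell, at -0.62. Of 25 cholesterol synthesis genes 17 were higher and 3 lower, with a median of 0.70 that kept its sign under every scaling. HMGCS1 had 227, 352, 185 and 164 CPM against 42.7, 38.8, 39.0 and 33.6 CPM (2.49 ± 0.13), while PMVK, a kinase of the same pathway, fell.

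Energy metabolism differed by gene more than by pathway. Of 23 glycolysis genes 12 were higher and 4 lower with TMM, but 7 were higher and 7 lower under scaling by total UMIs. GAPDH had 4472, 3701, 4724 and 3801 CPM in TE-like cells and 2410, 2407, 2545 and 2209 CPM in Epi-like cells (0.80 ± 0.05), and ENO2 and FBP1, a gluconeogenic enzyme, fell, at -1.96 and -2.71. Of 33 genes of the tricarboxylic acid cycle and its pyruvate entry 13 were higher and 6 lower, and their median of 0.18 became -0.03 under scaling by total UMIs. ACO1, an aconitase, was at 1.60, MPC2, a subunit of the mitochondrial pyruvate carrier, at -1.80 and SUCLA2, a subunit of succinyl-CoA ligase, at -1.31. Nuclear-coded subunits of oxidative phosphorylation were higher in 52 of 79, lower in 4, with a median of 0.30 that was 0.09 (23 higher, 10 lower) under scaling by total UMIs. ATP5F1E, a subunit of ATP synthase, had 737, 685, 616 and 532 CPM against 240, 228, 210 and 207 CPM. Of the 13 subunits coded in mitochondria 10 were higher and none lower (median 0.29, and 0.08 with 3 higher under scaling by total UMIs). The cells' median mitochondrial share of UMIs was 3.82%, 6.1%, 4.02% and 3.81% in TE-like cells and 4.35%, 4.48%, 4.15% and 4.01% in Epi-like cells, and the share was thus higher in TE-like cells only in run 1 at 0 mM.

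Fatty acid genes were split by count but contained some abundant differences. Of 15 fatty acid binding and storage genes 6 were higher and 4 lower, with a median of 0.37. Of 18 genes of fatty acid synthesis and desaturation 6 were higher and 5 lower. Their median of 0.04 became -0.18 under scaling by total UMIs. FABP5, a fatty acid binding protein, had 4617, 3139, 4300 and 4433 CPM in TE-like cells and 891, 810, 759 and 682 CPM in Epi-like cells (2.39 ± 0.09), and SCD, the stearoyl-CoA desaturase, 450, 382, 472 and 338 CPM against 107, 91.1, 116 and 97.8 CPM. FASN rose, at 1.42, and CPT1A, which admits fatty acids to mitochondria, fell, at -2.31. Of 28 glutamine, glutamate and serine genes 5 were higher and 13 lower, with a median of -0.34.

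Iron and redox genes were higher by count and by level. Of 17 NRF2 targets and ferritins 9 were higher and 3 lower. FTL, the ferritin light chain, averaged 9954 CPM in TE-like cells and 1615 CPM in Epi-like cells, a log2 ratio of 2.61, and HMOX1, the haem oxygenase, had 239, 117, 151 and 106 CPM against 25.1, 28.5, 27.0 and 29.7 CPM (2.44 ± 0.19). Metallothioneins went the other way: 7 of 8 were lower and none higher, with a median of -1.22 and MT1X at -1.77.

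Chromatin genes differed by group. Of 29 histone acetylation enzymes and readers 11 were lower and 1 was higher, with KAT7, an acetyltransferase, at 21.2, 14.8, 27.4 and 35.3 CPM in TE-like cells, against 67.2, 54.4, 70.3 and 62.3 CPM in Epi-like cells. EP300 was lower at -0.44 and CREBBP did not pass at -0.14. Of 38 Polycomb genes and 2-oxoglutarate-dependent demethylases and hydroxylases, 16 were lower and 4 higher. KDM4A and JARID2 fell, at -1.59 and -1.11, EED, a core Polycomb subunit, rose, at 1.19, and EGLN3, an oxygen-sensing hydroxylase, rose, at 2.47. Of 17 DNA methylation and demethylation genes 7 were higher and 4 lower, with a median of 0.13 that became -0.09 under scaling by total UMIs. TET2, which oxidizes methylcytosine with 2-oxoglutarate, had 113, 210, 127 and 114 CPM in TE-like cells and 7.93, 13.8, 12.7 and 16.8 CPM in Epi-like cells (3.38 ± 0.16), whereas TET1 had a ratio of -0.59. The 2 TET genes therefore moved in opposite directions. Of 52 replication-dependent histone genes 32 were higher and none lower, with a median of 0.80 and HIST1H4C, the most abundant, at 1.01 ± 0.07.

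Imprinted genes and long noncoding RNAs were split by locus. Of 26 imprinted genes 7 were higher and 13 lower. MEG3, from the DLK1-MEG3 locus, had 54.9, 104, 203 and 404 CPM in TE-like cells, against 576, 629, 822 and 881 CPM in Epi-like cells (-2.13 ± 0.25), and SNHG14, from the Prader-Willi locus, 74.9, 131, 126 and 169 CPM against 375, 390, 461 and 413 CPM. H19 and CDKN1C, from one imprinted region, were higher, at 2.74 and 2.21. CDKN1C was not so in every arm: it had 105, 6.36, 159 and 85.2 CPM against 15.6, 19, 22.9 and 24.3 CPM, lower in run 1 at 0 mM. The nuclear RNAs MALAT1 and NEAT1 were higher, with MALAT1 at 15205, 18684, 15056 and 15654 CPM in TE-like cells and 4283, 5566, 4473 and 5684 CPM in Epi-like cells (1.70 ± 0.05).

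Growth and protein synthesis genes differed by small amounts that turned on the scaling. Of 85 cytosolic ribosomal proteins 56 were higher and 1 lower with a median of 0.20, but 12 were higher and 25 lower with a median of -0.01 under scaling by total UMIs. Of 54 G2/M genes 21 were higher and 6 lower (median 0.24, and 0.02 with 8 higher and 14 lower under scaling by total UMIs), with CDC20 and ANLN at 1.02 and 1.04 and CENPA at -0.88. Of 43 S phase genes 15 were higher and 8 lower, and their median of 0.04 changed sign under that scaling. CCND2 was lower, and MYC had a ratio of 2.97.

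Of 23 apoptosis genes 12 were lower, 11 did not pass and none was higher, with a median of -0.53. HRK, a BH3-only death gene, had 5.15, 4.24, 12.1 and 13.7 CPM in TE-like cells, against 32.6, 37.5, 39.9 and 43.8 CPM in Epi-like cells, and CASP8 and CFLAR, its inhibitor, had ratios of -1.97 and -1.82. Genes that promote and genes that oppose death were lower together, with MCL1, a survival factor, at -0.81. Of 14 antigen presentation and interferon genes 9 were lower and 3 higher, while the summed level of the list was higher, at 1208, 1022, 1316 and 1059 CPM in TE-like cells, against 915, 965, 932 and 927 CPM in Epi-like cells. HLA-B had 4.58, 12.7, 17.1 and 24.2 CPM against 43.8, 49.9, 40.2 and 47.1 CPM (-1.47 ± 0.23), and the genes that rose included IFITM3 and IFITM2. Of 23 p53 target genes 4 were higher and 9 lower.

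TE-like cells also differed in readouts outside the gene counts. The median TE-like cell carried 1008.5, 475, 294 and 457.5 hashtag UMIs and the median Epi-like cell 224.5, 193, 87 and 203, which is 4.49, 2.46, 3.38 and 2.25 times as many. TE-like cells were higher in 4 of 4 arms, and the exact two-sided sign-flip permutation test over arms gave p = 0.13, the smallest that 4 arms allow. Hashtag antibodies of this kind bind B2M and CD298, the product of ATP1B3. ATP1B3 RNA had 198, 191, 207 and 190 CPM in TE-like cells, against 117, 118, 121 and 121 CPM in Epi-like cells (0.72 ± 0.08), and B2M RNA 6.86, 8.48, 10.3 and 13.7 CPM against 23.0, 29.8, 20.2 and 22.2 CPM (-1.07 ± 0.18; both genes were chosen after their values were seen). Their part in the hashtag signal was not tested.

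The hashtag signal bears on which cells were kept. The leading hashtag held a median of 98.6%, 97.1%, 98.0% and 98.9% of hashtag UMIs in TE-like cells and 94.2%, 93.1%, 94.2% and 97.6% in Epi-like cells. A stricter limit of 95% raised the TE-like share to 10.8%, 10.5%, 6.91% and 5.40%, more in the first 3 arms than in run 2 at 0 mM. The TE-like share is thus a value of the kept cells at one limit. It was also lower among the barcodes that failed the 80% limit in run 1, where 1 of 659 was TE-like (0.152%), than among those that passed, 77 of 3555 (2.17%, aggregates included).

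TE-like cells used fewer genes. At 5000 UMIs per cell the median TE-like cell had 1728.5, 1665.5, 1712 and 1706.5 genes and the median Epi-like cell 1872, 1830, 1862 and 1854. The mean difference was -151 ± 9.15 genes (SD over 4 arms), lower in 4 of 4 arms with an exact sign-flip permutation p of 0.13, the smallest possible. Total depth had no common direction: the medians were 32758, 25724.5, 16487 and 16486 UMIs in TE-like cells and 30048.5, 28952.5, 15501 and 15656.5 UMIs in Epi-like cells. With cells limited to a mitochondrial share of 8%, TE-like cells were deeper in 4 of 4 arms, by a mean of 1527 ± 831 UMIs (SD over arms; exact sign-flip permutation p of 0.13). The ribosomal protein share of UMIs was 33.5%, 32.7%, 34.1% and 34.4% in TE-like cells, against 34.2%, 34.4%, 34.3% and 34.4% in Epi-like cells.

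**Figure D4:**
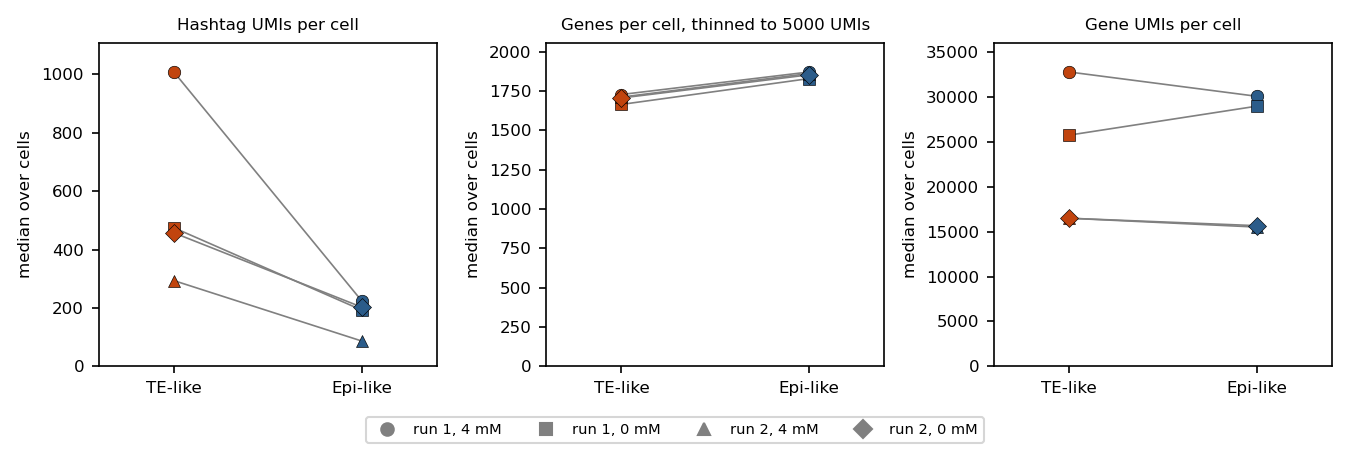
Medians over cells in TE-like (left of each panel) and Epi-like cells of the same arm, joined by a line, for hashtag UMIs per cell, genes per cell after thinning to 5000 UMIs and gene UMIs per cell; marker shapes give the arm and all axes start at 0. Hashtag UMIs are higher in TE-like cells in all 4 arms (294 to 1008.5, against 87 to 224.5), genes per cell are lower in all 4, and gene UMIs have no common direction.

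Whether the difference between the classes itself depended on dm-αKG was tested with a class by dose term. It passed for 89 of 12277 genes (0.725%), 49 with a larger class ratio at 4 mM and 40 with a smaller one, and 1056 genes had an unadjusted p under 0.05. DESeq2 called 26 genes, and 135 passed in edgeR with the near-cut cells left out. Among genes with at least 50 CPM in a class FABP7, a fatty acid binding protein, led: TE-like cells had 1055 and 813 CPM at 4 mM, against 127 and 215 CPM at 0 mM, while Epi-like cells had 5.76 and 10.2 CPM at 4 mM, against 14.2 and 14.6 CPM at 0 mM (runs 1 and 2 in each pair; term 3.14 ± 0.24 log2 units, adjusted p = 3.0e-10 by edgeR). H19 had 502 and 344 CPM at 4 mM in TE-like cells, against 70.0 and 80.9 CPM at 0 mM, and 29.4 and 32.5 CPM at 4 mM in Epi-like cells, against 29.7 and 33.5 CPM at 0 mM (2.47 ± 0.19). The difference in H19 thus lay within the TE-like class, and in FABP7 mostly there. PTN, TINAGL1, FOLR1, LINC01356, CBR1 and CCND1 followed, with terms between 1.55 and 1.97. For CCND1 and LINC01356 the class ratio itself changed sign with the dose in run 1 and run 2: CCND1 had ratios of 1.51 and 0.84 at 4 mM, against -1.19 and -0.16 at 0 mM.

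In the other direction SPRY2, PDPN, MEG8, PMAIP1, PYCARD, BBC3 and HLA-C had terms between -1.47 and -1.28. PMAIP1 and BBC3, BH3-only genes, stood lower at 4 mM in TE-like cells, with 22.3 and 28.8 CPM of PMAIP1 at 4 mM, against 61.5 and 51.3 CPM at 0 mM. These genes were lower in TE-like than in Epi-like cells. PYCARD went against its own term within run 1, with within-arm ratios of -2.80 at 4 mM and -3.60 at 0 mM.

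**Figure D5:**
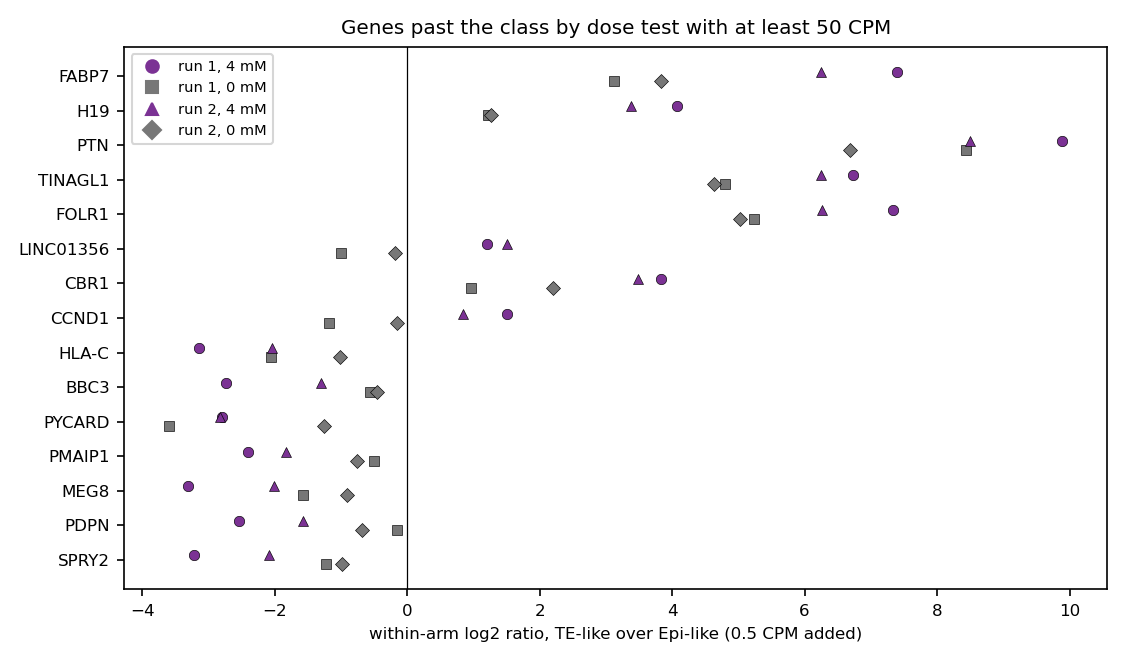
Within-arm log2 ratios, TE-like over Epi-like (x axis, 0.5 CPM added to each), of named genes past the class by dose test with at least 50 CPM in a class; purple markers are the 4 mM arms and grey markers the 0 mM arms, and shapes give the arm. FABP7 has the largest term, 3.14, with its 4 mM markers to the right, and SPRY2 the lowest of those drawn, -1.47, with its 4 mM markers to the left.

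A class by run term passed for 1 gene, HES1, a Notch target (0.00815% of genes tested; 712 genes at an unadjusted p under 0.05, and 5 by DESeq2). HES1 had 77.2 and 38.2 CPM in TE-like cells of run 1 and 22.8 and 29.1 CPM in those of run 2, against 2.40 and 1.98 CPM in Epi-like cells of run 1 and 6.54 and 5.97 CPM in those of run 2 (term -2.76 ± 0.33, adjusted p = 0.014 by edgeR). TE-like cells were higher in all 4 arms. Over the 5459 genes with at least 20 CPM, Pearson's r of the within-arm log2 ratios between pairs of arms lay between 0.856 and 0.957, a description across genes, which are not independent.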

How the data were processed

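Single-cell 3′ RNA and hashtag libraries of 2 capture runs were analysed. The authors deposited UMI counts per gene and barcode, made with Cell Ranger 6.1.2 on GRCh38, with bcl2fastq 2.20.0.422 and Seurat 4.3.0 also named in the submitters' processing notes. Barcodes were kept with 1 hashtag at 80% or more of hashtag UMIs, a mitochondrial share of at most 15% and at least 7000 (run 1) or 5000 (run 2) UMIs. The study used barcodes under its own filters and clusters, so cell numbers can differ. Doublets were treated only by the hashtag limit, and no caller was run. Counts were summed per arm and class, giving 8 sums, scaled by TMM and filtered for low counts by class, and tested with edgeR 4.0.16's quasi-likelihood test in R 4.3.3 with class and arm in the model (3 residual degrees of freedom) and Benjamini-Hochberg adjustment over 12277 genes. Interactions with dose and run had 2 residual degrees of freedom. The fit was tested on simulated data with known changes. Within-arm log2 ratios used a pseudocount of 0.5 CPM. Per-cell medians were compared by an exact sign-flip permutation test over 4 arms (scipy 1.17.1).

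Named genes were the 15 largest ratios in each direction with at least 50 CPM and 1 sign in all arms, from each list up to 4 in each direction with at least 20 CPM and members of at least 50 CPM against the list's majority, up to 8 in each direction per interaction, and the rule genes. Other genes named were chosen after their values were seen. The members and the 60 gene lists were chosen with earlier results of these data known, and members absent from the files or low in both classes were not tested. Some results are not reported here. Alternatives were DESeq2 1.42.0, other scalings and filters, other cell limits and leaving out each arm. Copies and near-identical family members, such as the HLA, histone and metallothionein genes, share reads and are uncertain between members. Promoters came from RefSeq on GRCh38.p14, and 26 of 30 genes searched had one.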

Additional observations from a re-analysis of the deposited data

Results flagged for a closer look

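In 11 of 189 sets of 4 arm values checked, 1 arm stood apart from the other 3, where chance alone gives about 1 in 20 sets. Run 1 at 0 mM, the arm with 18 TE-like cells, was the arm apart for most of the genes. Its within-arm log2 ratios, TE-like over Epi-like, were 0.79 for CDC20, -5.71 for CPT1A, -0.87 for EP300, 1.71 for FASN, 2.38 for FURIN, -2.03 for JARID2 and -5.55 for PEG10. PEG10 and CPT1A had no UMI in the TE-like sum of that arm, so their ratios there rest on the pseudocount of 0.5 CPM. In run 1 at 4 mM the ratio was -3.78 for HOXB-AS1 and 5.19 for STS. The median mitochondrial share of TE-like cells was 6.1% in run 1 at 0 mM, against 3.81% to 4.02% in the other arms, and the excess of hashtag UMIs in TE-like over Epi-like cells was 784 in run 1 at 4 mM, against 207 to 282.

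The class ratio differed between doses by the test of the interaction itself for 89 genes. With a larger ratio at 4 mM, the terms were 3.14 for FABP7, 2.47 for H19, 2.13 for XAGE2, 1.97 for PTN, 1.87 for TINAGL1, 1.84 for FOLR1, 1.73 for LINC01356, 1.70 for CBR1, 1.55 for CCND1, 1.30 for KRT19, 1.29 for CDKN1C, 1.12 for HSD17B1, 1.05 for S100A6, 0.97 for HMOX1, 0.85 for NLRP2 and 0.63 for FTL. With a smaller ratio at 4 mM, they were -1.47 for SPRY2, -1.43 for PDPN, -1.39 for MEG8, -1.38 for PMAIP1, -1.36 for PYCARD, -1.29 for BBC3, -1.28 for HLA-C, -1.16 for NF2, -0.68 for SNHG14 and -0.55 for EZR. The class by run test passed for 1 gene, HES1, with a term of -2.76.

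Outside the kept cells, 39 of 1225 run 2 barcodes whose leading hashtag held under 80% were TE-like by the rule (3.18%, 95% Clopper-Pearson interval 2.27 to 4.33), with a median of 23428 UMIs over those barcodes, against 15608.5 over the barcodes that passed.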

How the results depend on the processing

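Leaving out 1 arm at a time gave 3898 to 5917 genes called, 1842 to 2876 higher and 2056 to 3041 lower, and run 1 alone gave 3084 (1357 higher, 1727 lower). With cells thinned to 5000 UMIs 2992 were called (1432 higher, 1560 lower), and 1707 were higher under scaling by total UMIs. Without the replicate block (no arm in the model) 2834 were higher and 3105 lower. The class by dose test passed for 26 genes by DESeq2 (15 larger, 11 smaller at 4 mM), for 41 with at least 10 CPM (20 and 21), for 165 with no filter on low counts (98 smaller), for 135 without near-cut cells (73 smaller), and with 67 smaller under scaling by total UMIs. The class by run test passed for 5 genes by DESeq2, 0 with at least 10 CPM, 67 with no filter and 3 under scaling by total UMIs. Of 3037 values of the genes named, over 18 alternatives, 2971 kept direction and call and 1 reversed: PDGFRA, which did not pass, was at -1.78 without near-cut cells. Of 156 values of the 26 named class by dose terms, over 6 alternatives, 26 no longer passed (14 by DESeq2, 11 with at least 10 CPM, 1 without near-cut cells) and none reversed. With the hashtag limit at 95% the TE-like share was 10.8%, 10.5% and 6.91% in the first 3 arms, genes per cell differed by -163 and the leading hashtag share by 1.35 points. Without near-cut cells the share was 4.01% in run 2 at 0 mM and genes per cell differed by -167. The causes were not tested. Few TE-like cells in run 1 at 0 mM limit precision there.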

Other observations

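By chromosome, the median log2 ratio was lowest on chromosome 9, at -0.09 over 211 genes with at least 20 CPM in a class. Of these 35.1% were called lower, against 24.7% of all genes tested. On the other chromosomes that share ran from 11.3% (chromosome 21) to 27.6% (chromosome 19). Chromosome 9 was picked as the extreme. Its median was -0.18, -0.39, -0.04 and 0.02 in run 1 at 4 mM, run 1 at 0 mM, run 2 at 4 mM and run 2 at 0 mM, so the arms did not share a direction.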
